A study of Mus musculus with 142 samples.

Results

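Lin28a and Lin28b, Igf2bp1, Igf2bp2 and Igf2bp3, and Hmga1 and Hmga2 were followed in cultured mouse oligodendrocyte progenitor cells (OPCs) across brain region, histone genotype and days of differentiation. These 7 genes were chosen by family name from 47516 genes with a count in any library. Earlier results of these data had already named Igf2bp3 in K27M cultures and Hmga2 at day 5 in control cultures. Igf2bp3 in K27M against control and Hmga2 at day 5 against day 0 in controls are therefore given as a description, with no test. Other comparisons of these genes that use the same libraries were tested and are not independent of that choice.

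LIN28A and LIN28B are RNA-binding proteins that block the maturation of the let-7 family of microRNAs. Mature let-7 pairs with sites in the 3′UTRs of target mRNAs, classically those of the LIN28, IGF2BP and HMGA2 genes, and lowers their stability and translation. IGF2BP proteins bind mRNAs and act on their stability, transport and translation, and HMGA1 and HMGA2 are small chromatin proteins that bind AT-rich DNA. All 3 families are known from embryonic tissue, including neural stem and progenitor cells, and most members are low in the adult brain.

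OPCs were isolated by immunopanning on PDGFRa (CD140a) from brainstem or dorsal telencephalon of pups 5 to 7 days old, with litters and sexes pooled for each region and genotype. K27M pups (AMGFAP-Cre;K27M in the labels, hGFAP-Cre in the paper) carried a conditional knock-in of the K27M mutation at the endogenous histone gene H3f3a (H3-3a). The knock-in is released by a Cre that the human GFAP promoter drives in neural stem and progenitor cells from before birth. Cells outside the oligodendrocyte lineage therefore carry it too. Controls were littermates without Cre on the same FVB background, in which the stop cassette keeps the targeted H3f3a allele off, and the Cre construct contains the Prm1 promoter. Day 0 cells stayed in proliferation medium (forskolin, CNTF, neurotrophin-3 and PDGF), and cells of days 1, 2 and 5 were moved to a medium with forskolin, CNTF and thyroid hormone. The libraries form 16 groups of region, genotype and day, with 9 wells each, except that day 1 of brainstem controls and day 2 of brainstem K27M have 8. Each region and genotype had 3 cultures (38, 41 and 42), which makes 12 lines with about 3 wells a day. Wells of a line share its cells, so p-values over wells also measure the spread between wells of one culture, and a difference was called here only where it passed on wells and again on counts summed per line and day, with the same sign. Passage ran from 3 to 8 in brainstem controls, from 1 to 6 in brainstem K27M and from 1 to 4 in both telencephalon genotypes. The batch label is nested in region and culture, so batch and region cannot be told apart.

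The let-7 sequences are shown first, since the 3 families share let-7 as a known regulator. The 9 mature mouse let-7 and miR-98 5p sequences in RefSeq (GRCm38.p6) all carry the same seed, bases 2 to 8, given in capitals below for 3 of them.
let-7a-5p: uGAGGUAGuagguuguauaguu
let-7i-5p: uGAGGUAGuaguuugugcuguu
miR-98-5p: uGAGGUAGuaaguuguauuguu
Outside the seed they differ at several bases. Mature let-7 is too short for these libraries and was not measured.

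The sequence that pairs with this seed, CTACCTC, was searched on the transcript strand of the 3′UTR of the transcript holding most of each gene's abundance (GENCODE M21, GRCm38). Lin28b, Igf2bp1 and Hmga2 each held 4 matches, Lin28a held 2, and Igf2bp2 and Igf2bp3 held 1 each. Of 14272 tested protein-coding genes with a 3′UTR, 8.91% held at least 1 match and 0.0561% (8 genes) held 4 or more. Among genes whose 3′UTR was within 25% of the same length, a count at least as high occurred in 0.364% for Lin28b, 0.425% for Igf2bp1, 0.106% for Hmga2, 11.4% for Igf2bp2 and 12.4% for Igf2bp3. The most abundant Hmga1 transcript has a 3′UTR of 111 bases with no match, and 6 of 17 coding Hmga1 transcripts held a match. A match followed by A (CTACCTCA, in capitals below, all on the minus strand) is shown for the 4 genes on which the results turn.
Lin28b, chr10:45381022-45381051: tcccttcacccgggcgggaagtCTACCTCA
Igf2bp3, chr6:49086787-49086816: ttaaacgtgcatttttactcaaCTACCTCA
Igf2bp2, chr16:22059473-22059502: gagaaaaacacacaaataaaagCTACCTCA
Hmga2, chr10:120364224-120364253: agggggcgccgacattcaatttCTACCTCA
The matches begin at base 21 of 2977 in the 3′UTR of Hmga2, where the first bases shown still belong to the coding sequence, at base 36 of 4445 in Lin28b, base 548 of 2119 in Igf2bp3 and base 1313 of 1784 in Igf2bp2. A match of letters is a description and not evidence of binding.

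Depth ran from 26.6 M to 455 M counted pairs with a median of 46.9 M, the next deepest library holding 84.7 M, and no 2 libraries were identical. Levels are given as CPM (counts of a gene per M counts of the library after TMM scaling), and levels of different genes are compared only as TPM, which corrects for transcript length. H3f3a, the targeted gene, ranged from 148 to 545 CPM over control libraries and from 359 to 765 CPM over K27M libraries, and the mutated codon itself cannot be seen in counts per gene. Prm1, a sperm protamine gene picked after its values were seen, separated the genotypes in all libraries, with 33.8 to 128.7 CPM in K27M and at most 0.0311 CPM in controls. The 9 OPC markers, a list that includes Cnp (up to 5264 CPM), which mature cells also express, summed to 3530 to 8398 CPM in every library. Called lower at day 5 were 5, 5, 7 and 6 of them in brainstem controls, brainstem K27M, telencephalon controls and telencephalon K27M. Called higher were 2, 1, 2 and 2. Of all genes, 32.1%, 28%, 30.5% and 31.1% were called lower in the same arms and 32.7%, 31.6%, 33.9% and 33.7% higher. Microglia markers summed to at most 6.09 CPM, and vascular and fibroblast markers to at most 50.7 CPM. Cycling markers fell with differentiation in each arm, from medians of 3363 to 3996 CPM at day 0 to 249.8 to 591 CPM at day 5. Mature oligodendrocyte markers reached medians of 35920 to 58930 CPM by day 5, and all 9 rose in each of the 4 arms. In 10 libraries, all of day 5 and 6 of them brainstem controls, over 28000 genes were detected, and results that rest on these wells are marked below. In such bulk samples, fewer cells of a type and less RNA per cell cannot be told apart.

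K27M cultures were compared with controls first, to ask whether the mutation goes with higher levels of these genes in either region. In the brainstem Lin28b and Igf2bp2 were called higher at days 0, 1 and 2, when 1.42%, 4.87% and 4.22% of the 19769 genes tested were called. Lin28b alone of the members was called at day 5, when 12.1% of genes were. In the telencephalon Lin28b was called at days 0 and 1, Lin28b and Igf2bp2 at day 2 and Igf2bp2 at day 5, beside 0.379%, 5.12%, 5.2% and 2.3% of all genes. No member was called lower in any of these 8 comparisons. Igf2bp1, Hmga1 and Hmga2 were called in 0 of 8, Igf2bp3 is not counted here, and Lin28a was too low to be tested. The plot of K27M effects shows Lin28b, Igf2bp2, Igf2bp3, Hmga1 and Hmga2 for each region and day.

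**Figure D1:**
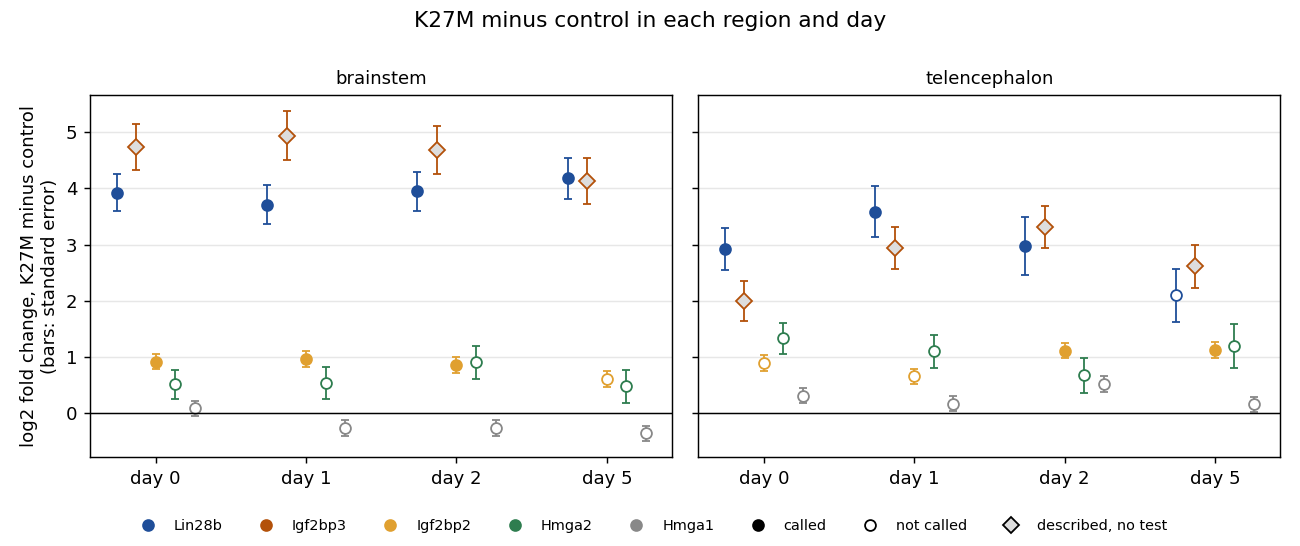
Log2 fold change of K27M against control (vertical axis) by day of differentiation (0, 1, 2, 5) for Lin28b, Igf2bp3, Igf2bp2, Hmga2 and Hmga1 in brainstem and telencephalon, with bars of 1 SE from the edgeR fit on wells. Igf2bp1 and Lin28a, with few counts, are not drawn. Filled symbols were called, open symbols were not, and diamonds (Igf2bp3) are described with no test. Lin28b lies between 3.71 and 4.18 in the brainstem and between 2.10 and 3.59 in the telencephalon, and Hmga1 stays between −0.36 and 0.52.

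Lin28b, the LIN28 paralog that acts in the nucleus and blocks let-7 precursors at an early step, held 15345 counts and was at 0 in 8 libraries (ENSMUSG00000063804.8, chr10:45376620-45486395, minus strand). In brainstem K27M the lowest, median and highest wells were 6.84, 8.95 and 11.4 CPM at day 0, 4.39, 7.97 and 9.71 at day 1, 4.03, 5.24 and 6.76 at day 2, and 3.14, 3.47 and 5.28 at day 5. In brainstem controls they were 0.139, 0.388 and 2.05 CPM at day 0, 0.0312, 0.459 and 1.64 at day 1, 0.0244, 0.239 and 0.964 at day 2, and 0.0585, 0.280 and 0.497 at day 5. The lowest K27M well of each brainstem day was above the highest control well of that day.

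The log2 fold changes of K27M against control in the brainstem were 3.93 ± 0.33, 3.71 ± 0.35, 3.95 ± 0.35 and 4.18 ± 0.36 (SE) at days 0, 1, 2 and 5, or 15.2-, 13.1-, 15.4- and 18.1-fold. The adjusted p-values on culture sums were 0.000288, 0.000492, 0.000183 and 8.45e-05 (edgeR quasi-likelihood test, Benjamini-Hochberg adjustment). All 3 cultures were higher in K27M at each day, but by unequal amounts, from 5.98- to 37.4-fold at day 0 and from 8.34- to 68.9-fold at day 5. Without culture 42 the values rose to 4.72, 4.40 and 5.30 at days 0, 1 and 2, and without culture 38 the day 5 value was 3.45. Without culture 41 the call of day 1 was lost (3.33, adjusted p on sums 0.0505, edgeR).

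In telencephalon K27M the lowest, median and highest wells of Lin28b were 0.399, 0.805 and 1.81 CPM at day 0, 0.284, 0.532 and 1.20 at day 1, 0.145, 0.259 and 0.574 at day 2, and 0.108, 0.340 and 0.603 at day 5. In telencephalon controls they were 0.0381, 0.133 and 0.190 CPM at day 0, 0, 0.0379 and 0.219 at day 1, 0, 0.0432 and 0.123 at day 2, and 0, 0.0738 and 0.234 at day 5. These control values are near the limit of detection. The 4 control groups held 62, 21, 15 and 27 counts in all, and 8 wells held 0, which allows up to 0.0389 to 0.084 CPM in each (3 counts, counting error only).

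The K27M wells stood above all control wells at days 0, 1 and 2 and overlapped them at day 5. Log2 fold changes were 2.93 ± 0.38, 3.59 ± 0.46, 2.97 ± 0.52 and 2.10 ± 0.47, with adjusted p-values on culture sums of 0.0353, 0.00589, 0.0247 and 0.135 (edgeR quasi-likelihood), so that the day 5 difference was not called. These calls were less firm than those in the brainstem. Leaving out any 1 culture ended the calls of day 0 (2.73 to 3.13) and day 2 (2.38 without 38, 3.74 without 41, 2.95 without 42), and the call of day 1 was lost without 41 (4.59) and without 42 (2.71). Fitted with no filter on low counts, or with offsets for effective transcript length, the calls of days 0 and 2 were lost as well.

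Between regions, Lin28b was higher in brainstem than in telencephalon K27M at each day, by 9.90-, 11.6-, 17.1- and 11.0-fold (log2 3.31, 3.54, 4.10 and 3.46), and the wells of the regions did not overlap. It was the only member called at days 0, 2 and 5 of this comparison, in which 2.65%, 1.73% and 5.06% of genes were called, and Hmga2 joined it at day 1, beside 3.47%. Without culture 38 the calls of days 0, 1 and 2 were lost (2.97, 3.10 and 3.82). In controls Lin28b was higher in the brainstem at days 0, 1 and 2 (log2 2.31, 3.41 and 3.12), with wells that overlapped between regions, and at day 5 it was not called (1.38, adjusted p on sums 0.272, edgeR). Few telencephalon counts stand behind these control differences, and all 3 calls were lost without culture 42 (1.67, 2.12 and 2.11, adjusted p on sums 0.337, 0.143 and 0.267, edgeR). Without culture 38 those of days 0 and 2 were lost (2.21 and 2.68), and without culture 41 that of day 0 was lost (2.91) while those of days 1 and 2 were 4.99 and 4.32. Day 0 was also lost with no filter on low counts or no block of culture. Offsets for effective transcript length lost days 0 and 2 (adjusted p on sums 0.0538 and 0.0889, edgeR). The calls of days 0 and 2 were also lost with passage as a covariate (1.37 and 2.06, adjusted p on sums 0.417 and 0.358, edgeR).

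The difference of the K27M effects between regions was itself tested. For Lin28b it was 1.00, 0.12, 0.98 and 2.08 on the log2 scale at days 0, 1, 2 and 5, and none was called, with adjusted p-values at day 5 of 0.00843 on wells and 0.211 on sums (edgeR). Over the 5 members tested, 0 of 20 such differences were called by edgeR or DESeq2, beside 0.00506%, 10.3%, 0.921% and 4.86% of all genes. Of these 20, 7 had an unadjusted p under 0.05 on wells and 3 had one on sums (edgeR). Igf2bp1 gave 4 of the 20 and entered the test only through the wells in which it was high.

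Ranked by the mean of the 3 cultures, the 4 brainstem K27M groups headed the order of Lin28b (9.12 ± 1.66, 7.42 ± 2.19, 5.44 ± 1.20 and 3.90 ± 0.88 CPM, SD over cultures, days 0, 1, 2 and 5). The next group was telencephalon K27M at day 0 (1.01 ± 0.51 CPM), with no overlap of wells or cultures, and telencephalon control at day 2 was last (0.0448 ± 0.0392 CPM). Every other pair of neighbours in this order overlapped. With differentiation Lin28b declined less than Hmga2 did. It was called lower at day 5 in brainstem controls (log2 −1.47), and at days 2 and 5 in telencephalon K27M (−1.59 and −1.38). The calls in telencephalon K27M were lost in leaving out any 1 culture. That in brainstem controls was lost without culture 38 (−1.06) or 42 (−1.15) and was −2.26 without culture 41. It was also lost without the deepest library, which lies in this group (−1.27, adjusted p on sums 0.0530, edgeR). No filter on low counts, no block of culture, offsets for effective transcript length and DESeq2 with a fold threshold of 1.1 each lost it too. The level left at day 5 was 59.3% of day 0, from 13.3 to 136% over cultures.

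**Figure D2:**
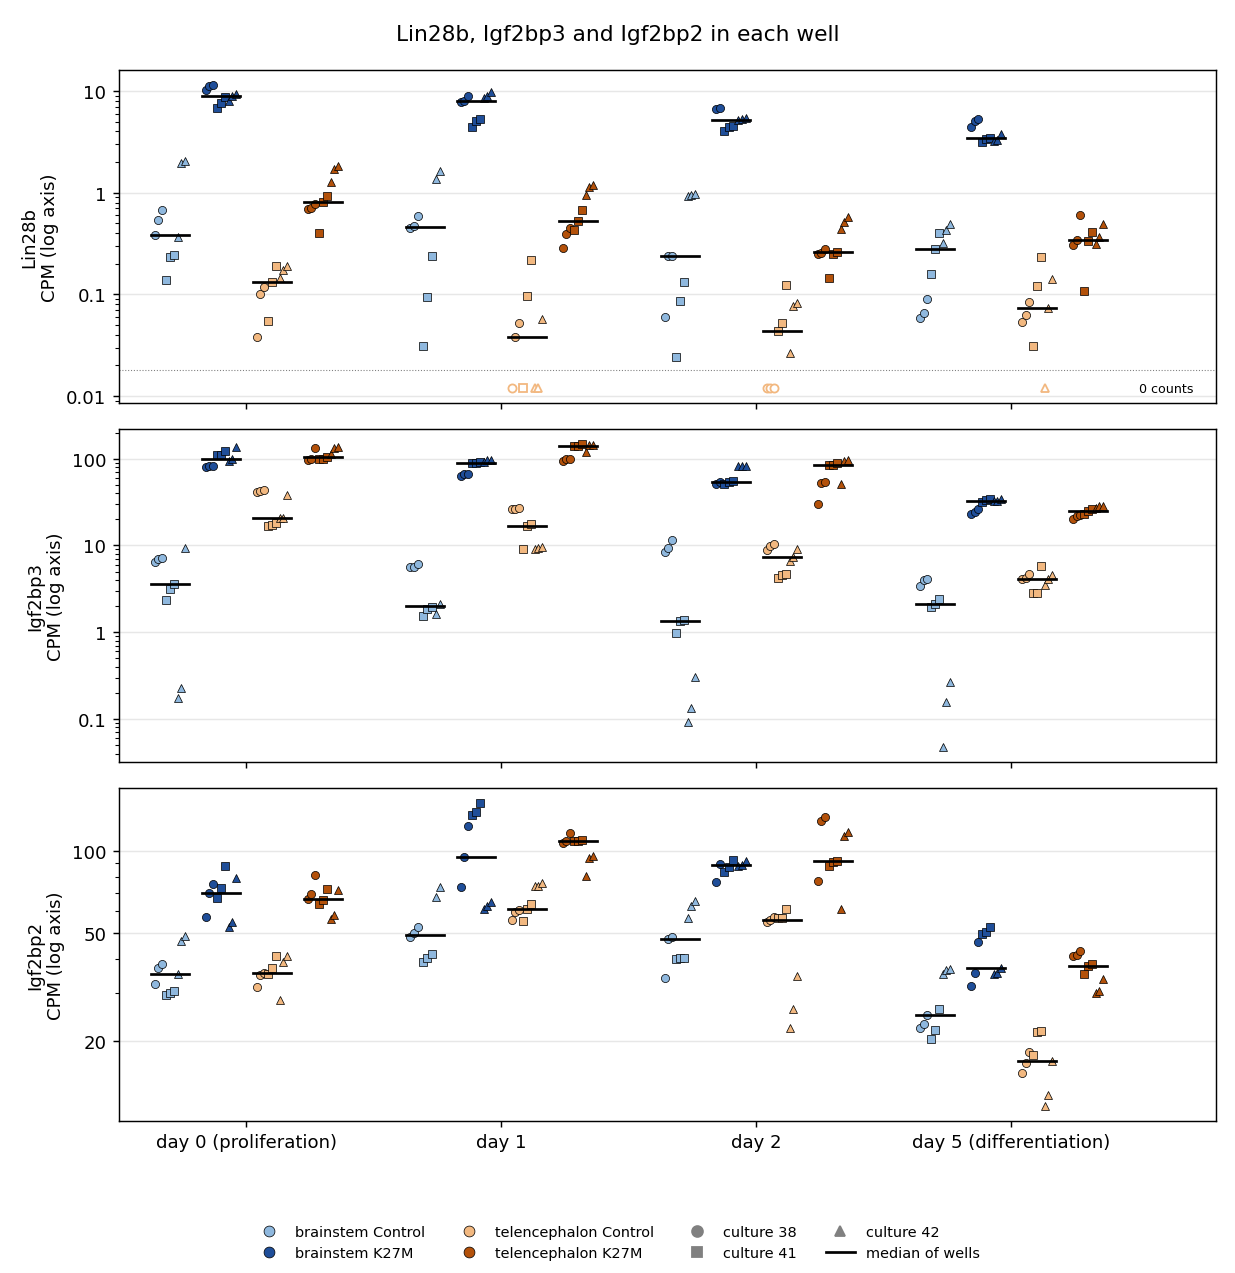
Level of Lin28b, Igf2bp2 and Igf2bp3 in CPM (logarithmic vertical axis) in each well, by region, genotype and day of differentiation, with black bars at the medians of wells. Open symbols below the dotted line are wells with 0 counts of Lin28b. The brainstem K27M wells of Lin28b sit between 3.14 and 11.4 CPM, above every other group, while Igf2bp3 reaches 94.3 to 147 CPM in telencephalon K27M at day 1.

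Lin28a, the cytoplasmic paralog that recruits uridylating enzymes to let-7 precursors (ENSMUSG00000050966.9, chr4:134003330-134018841, minus strand), held 101 counts in 52 libraries, at most 11 in a library and at most 0.301 CPM. Brainstem controls at day 0 held 0 counts in 9 wells, which allows up to 0.00683 CPM over the group (3 counts). It did not pass the filter on low counts, and its differences were not tested with that filter.

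Igf2bp3, an mRNA-binding protein of fetal and tumour cells (ENSMUSG00000029814.10, chr6:49085223-49214957, minus strand), held 314742 counts. In brainstem K27M the lowest, median and highest wells were 79.5, 99.5 and 136 CPM at day 0, 63.2, 88.4 and 97.2 at day 1, 51.7, 54.3 and 82.1 at day 2, and 23.0, 32.5 and 34.6 at day 5. In brainstem controls they were 0.176, 3.57 and 9.30 CPM at day 0, 1.55, 2.01 and 6.16 at day 1, 0.0927, 1.33 and 11.7 at day 2, and 0.0478, 2.14 and 4.13 at day 5. No brainstem control well reached the lowest K27M well of its day, and the fitted ratios were 26.7-, 30.7-, 25.6- and 17.6-fold. These ratios are not adjusted for passage, which ran from 3 to 8 in brainstem controls and from 1 to 6 in brainstem K27M.

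In telencephalon K27M the wells of Igf2bp3 ran from 97.3 to 136 CPM (median 105) at day 0, from 94.3 to 147 (139) at day 1, from 29.8 to 96.2 (83.5) at day 2 and from 20.1 to 28.7 (25) at day 5. Telencephalon controls ran from 16.9 to 43.8 CPM (20.7), 9.15 to 27.1 (16.8), 4.19 to 10.3 (7.42) and 2.82 to 5.86 (4.12). K27M wells were again all above control wells of the same day, and the fitted ratios were 3.98-, 7.65-, 9.95- and 6.12-fold. Between cultures the ratio spread from 5.37 to 460 in the brainstem at day 2 and from 2.57 to 5.76 in the telencephalon at day 0.

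In controls, Igf2bp3 was lower in the brainstem than in the telencephalon at day 0 (log2 −2.79 ± 0.38, adjusted p = 9.53e-10 on wells and 0.0182 on sums, edgeR) and at day 1 (−2.51 ± 0.40, 0.0141 on sums), with no overlap of wells. This comparison shares the control libraries with the description above and is not independent of it. Lin28b went the other way in the same comparison, and it and Igf2bp3 were the members called at day 0, beside 5.22% of genes. At day 1, with 23.5% of genes called, Hmga2 was called with them. At days 2 and 5 Igf2bp3 was not called (−1.39 and −1.14, adjusted p on sums 0.297 and 0.317, edgeR), while Lin28b was the member called at day 2 and Hmga2 at day 5 (7.05% and 9.84% of genes). In K27M the regional differences of Igf2bp3 were −0.04, −0.50, −0.02 and 0.38, and none was called.

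The control difference of Igf2bp3 rested on few lines and was smaller with passage as a covariate. Passage ran from 3 to 8 in brainstem controls and from 1 to 4 in telencephalon controls, so passage and region cannot be fully told apart. The call of day 0 was lost without culture 41 (−2.86) or 42 (−2.65), and that of day 1 without culture 41 (−2.24). With no filter on low counts that of day 0 was lost as well (adjusted p on sums 0.0542, edgeR). With passage as a covariate the values were −1.65 and −0.87 (adjusted p on sums 0.306 and 0.322, edgeR), and both calls were lost. In brainstem control culture 42, the well of passage 3 held 9.30 CPM at day 0 and the wells of passage 8 held 0.176 and 0.229. Lin28b in the same wells was at 0.368 CPM at passage 3 and at 1.97 and 2.05 CPM at passage 8. This line was picked after its values were seen, and the part of passage was tested only as that covariate.

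**Figure D3:**
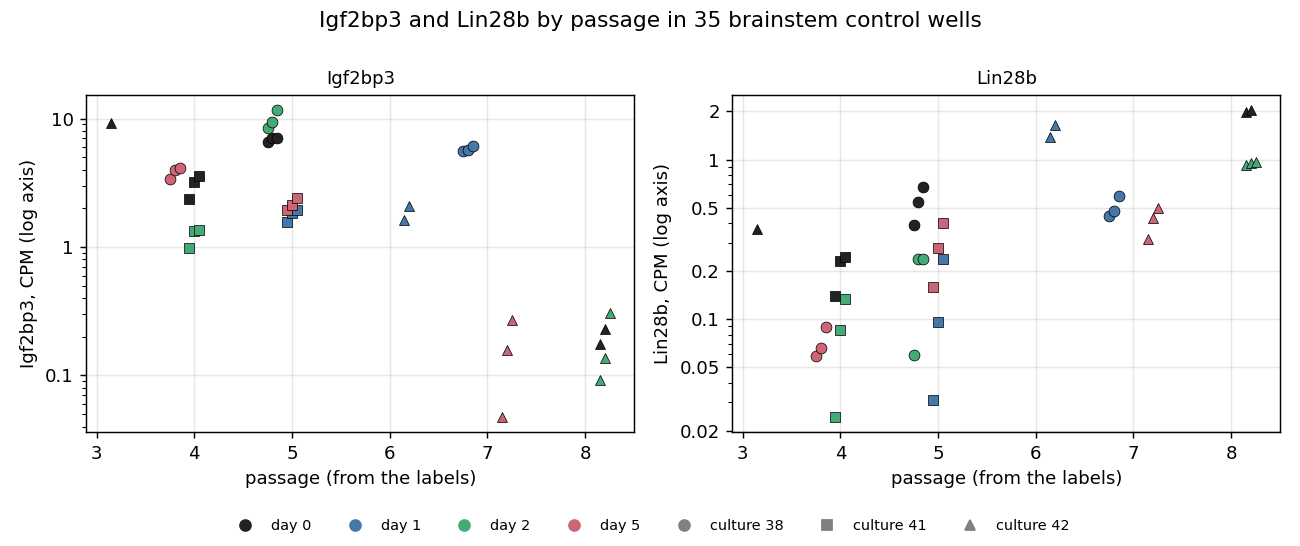
Level of Igf2bp3 and Lin28b in CPM (logarithmic vertical axis) in each brainstem control well against the passage of its culture (horizontal axis, points set apart slightly by culture and well), with symbols for cultures 38, 41 and 42. Wells of culture 42 at passage 7 and 8 hold 0.0477 to 0.305 CPM of Igf2bp3, and the day 0 wells of passage 8 hold the highest Lin28b of the brainstem controls, 1.97 and 2.05 CPM.

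Over differentiation Igf2bp3 fell in telencephalon controls by day 2 (log2 −1.97) and day 5 (−2.80), and at day 5 in brainstem K27M (−1.76) and telencephalon K27M (−2.18). The K27M libraries here are those in which Igf2bp3 had been named, so that these K27M values are not independent of its choice. The fall of telencephalon controls at day 5 held in leaving out each culture, and the other 3 calls were lost without culture 41, that of brainstem K27M also with no filter on low counts (adjusted p on sums 0.0638, edgeR). At day 5 the level was 29.7 ± 0.65% of day 0 in brainstem K27M, 22.1 ± 2.50% in telencephalon K27M and 15.8 ± 5.90% in telencephalon controls (SD over 3 cultures). Brainstem controls, at 43.9 ± 34.6%, varied too widely between cultures for a call (−1.15, adjusted p on sums 0.107, edgeR).

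Igf2bp2, the family member that stays on in adult tissues (ENSMUSG00000033581.17, chr16:22059009-22163299, minus strand, 414266 counts), was present in all libraries. The lowest, median and highest wells in brainstem controls were 29.4, 35.3 and 48.6 CPM at day 0, 38.9, 48.9 and 73.7 at day 1, 34.2, 47.4 and 65.3 at day 2, and 20.3, 25 and 36.9 at day 5. In brainstem K27M they were 52.3, 70.0 and 88.0 CPM, then 60.9, 94.7 and 149.7, then 76.8, 88.3 and 92.0, and 32.0, 37.2 and 52.6 at day 5. Brainstem K27M medians were thus above those of controls at each day. In telencephalon controls the wells ran from 28.3 to 41.2 CPM (median 35.5), 55.4 to 76.2 (61.1), 22.4 to 60.8 (55.5) and 11.6 to 21.8 (16.9), and in telencephalon K27M from 56.4 to 81.2 (66.7), 81.1 to 116.3 (108.4), 61.0 to 132.5 (91.7) and 30.1 to 42.8 (37.6). The wells of K27M and control did not overlap at days 0 and 2 in the brainstem or at any day in the telencephalon.

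The log2 fold changes of Igf2bp2 were 0.92, 0.97, 0.85 and 0.61 in the brainstem and 0.89, 0.65, 1.11 and 1.12 in the telencephalon, each with an SE of 0.14. Called were days 0, 1 and 2 in the brainstem (adjusted p on sums 0.0456, 0.0257 and 0.0424, edgeR) and days 2 and 5 in the telencephalon (0.00759 and 0.00955). The other 3 had adjusted p-values on sums of 0.0814, 0.106 and 0.126 (edgeR). The brainstem calls sat close to the threshold. All 3 were lost without culture 38 or without 41, with the brainstem fitted alone, with no filter and in DESeq2 with a fold threshold of 1.1. Those of days 0 and 2 were also lost with passage as a covariate (adjusted p on sums 0.0784 and 0.0516, edgeR). The same 2 were lost with no block of culture (0.0666 and 0.0681). That of day 0 was also lost with offsets for effective transcript length (adjusted p on sums 0.0534, edgeR). At day 1 culture 42 was at 0.888 of its control, and the fold change was 0.47 without culture 41 and 1.40 without culture 42. In the telencephalon the call of day 2 was lost without culture 38 (1.17) or 42 (0.84), and that of day 5 without 38 (1.02).

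Igf2bp2 was the only member called higher at day 1 than at day 0, in 1 of 4 arms. In telencephalon controls it was higher at day 1 than at day 0 (log2 0.85, all wells apart, lost without culture 38), and in the other 3 arms day 1 wells overlapped those of day 0 with values of 0.51, 0.56 and 0.61 that were not called. At day 5 it had fallen below day 0 in telencephalon controls (−1.1), brainstem K27M (−0.72, lost without culture 38) and telencephalon K27M (−0.87). It was called in 0 of 8 comparisons of region by edgeR or DESeq2, 2 of which had an unadjusted p under 0.05 on wells and 1 on sums (edgeR). As TPM, Igf2bp3 stood at 0.0817 ± 0.0368 of Igf2bp2 in brainstem controls at day 0, 0.614 ± 0.279 in telencephalon controls, 1.13 ± 0.26 in brainstem K27M and 1.28 ± 0.22 in telencephalon K27M (SD over 3 cultures).

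Igf2bp1, a fetal mRNA-binding protein of stem and progenitor cells (ENSMUSG00000013415.9, chr11:95957163-96005940, minus strand), held 270 counts in 75 libraries and never more than 17 in 1 library (0.391 CPM). Brainstem controls held 0 counts in 8 wells at day 1, which allows up to 0.00917 CPM over the group. The highest total of a group was 70 counts, in telencephalon K27M at day 0, against 4 in its controls. Igf2bp1 entered the test through the wells in which it was high, since only 4 and 3 wells of telencephalon K27M at days 0 and 1 and 1 of brainstem controls at day 5 reached the filter, and its tests are given for completeness. Of the 8 K27M comparisons 0 were called by edgeR and 1 by DESeq2, with an unadjusted p under 0.05 in 5 on wells and 1 on sums (edgeR). The only call of Igf2bp1 was at day 5 in brainstem controls, with 35 counts against 2 at day 0 (log2 3.78), the group with 6 of the 10 libraries of over 28000 genes. Without such libraries it was 1.98 and not called (adjusted p on sums 0.346, edgeR), and without culture 42 it was 3.06 and not called.

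Hmga2, an architectural chromatin factor of fetal stem cells and the classical let-7 target (ENSMUSG00000056758.14, chr10:120361275-120476469, minus strand, 125808 counts), was the member that changed most with differentiation. In brainstem controls the lowest, median and highest wells were 35.8, 50.8 and 59.5 CPM at day 0, 5.62, 12.6 and 28.2 at day 1, 2.09, 4.06 and 5.70 at day 2, and 1.39, 1.93 and 4.96 at day 5. In brainstem K27M they were 53.1, 64.8 and 108 CPM, then 5.66, 14.7 and 40.9, then 4.70, 7.85 and 9.55, and 2.62, 3.23 and 7.54 at day 5. Day 0 wells were above all wells of any later day in both genotypes.

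In telencephalon controls the wells of Hmga2 were 6.52, 26.8 and 43.4 CPM at day 0, 1.61, 2.00 and 2.35 at day 1, 1.04, 1.40 and 2.21 at day 2, and 0.309, 0.477 and 0.704 at day 5 (lowest, median, highest). In telencephalon K27M they were 28.4, 47.2 and 88.2 CPM, then 2.86, 4.37 and 5.39, then 1.25, 2.45 and 3.42, and 0.544, 0.983 and 2.07 at day 5. Most of the fall in the telencephalon thus took place within the first day, with 13.9 ± 11.7% of the day 0 level left at day 1 in controls and 9.14 ± 4.38% in K27M (SD over 3 cultures). In the brainstem 29.9 ± 17.9% and 30.7 ± 30.6% were left at day 1.

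All 10 day comparisons of Hmga2 that were tested were called lower, with wells apart in each. The log2 fold changes at day 1 were −1.78 in brainstem controls, −1.75 in brainstem K27M, −3.33 in telencephalon controls and −3.56 in telencephalon K27M, and at day 2 they were −3.65, −3.26, −3.84 and −4.50. At day 5 they were −4.22 in brainstem K27M and −5.47 in telencephalon K27M, 18.6- and 44.2-fold. The described control values of day 5 were −4.18 and −5.33, from the same day 0 libraries as the control values of days 1 and 2.

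The brainstem values of day 1 depended on the culture. For cultures 38, 41 and 42 the control lines averaged 26.4, 5.67 and 12.6 CPM, and the K27M lines averaged 15.2, 5.79 and 39.7. The control fold change was −2.41 without culture 38 and −1.31 without 41, and the call was lost without 41 or 42. The K27M value was −2.91 without culture 42 and −1.35 without 41, and the call was lost without 38 or 41. Both were also lost with no filter on low counts. In the telencephalon and at days 2 and 5 all 8 calls held in leaving out each culture.

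These day comparisons call a large share of the genome. At day 1 the share was 18.3% of genes in brainstem controls, 18.5% in brainstem K27M, 37.1% in telencephalon controls and 31.8% in telencephalon K27M, rising to 52.5%, 47.5%, 55.2% and 51.7% at day 2 and to 64.8%, 59.6%, 64.4% and 64.8% at day 5. Members called numbered 1, 1, 3 and 2 at day 1, 2, 2, 3 and 3 at day 2, and 3, 4, 3 and 5 at day 5. Hmga2 at day 5 in controls is not counted, and Igf2bp1, with few counts, is 1 of the 3 in brainstem controls at day 5. Cycling markers fell too. All 12 were called lower at days 2 and 5 in each arm, and at day 1 the number was 0 in brainstem controls, 2 in brainstem K27M, 12 in telencephalon controls and 11 in telencephalon K27M. The part of cell cycle exit in the fall of any member was not tested.

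**Figure D4:**
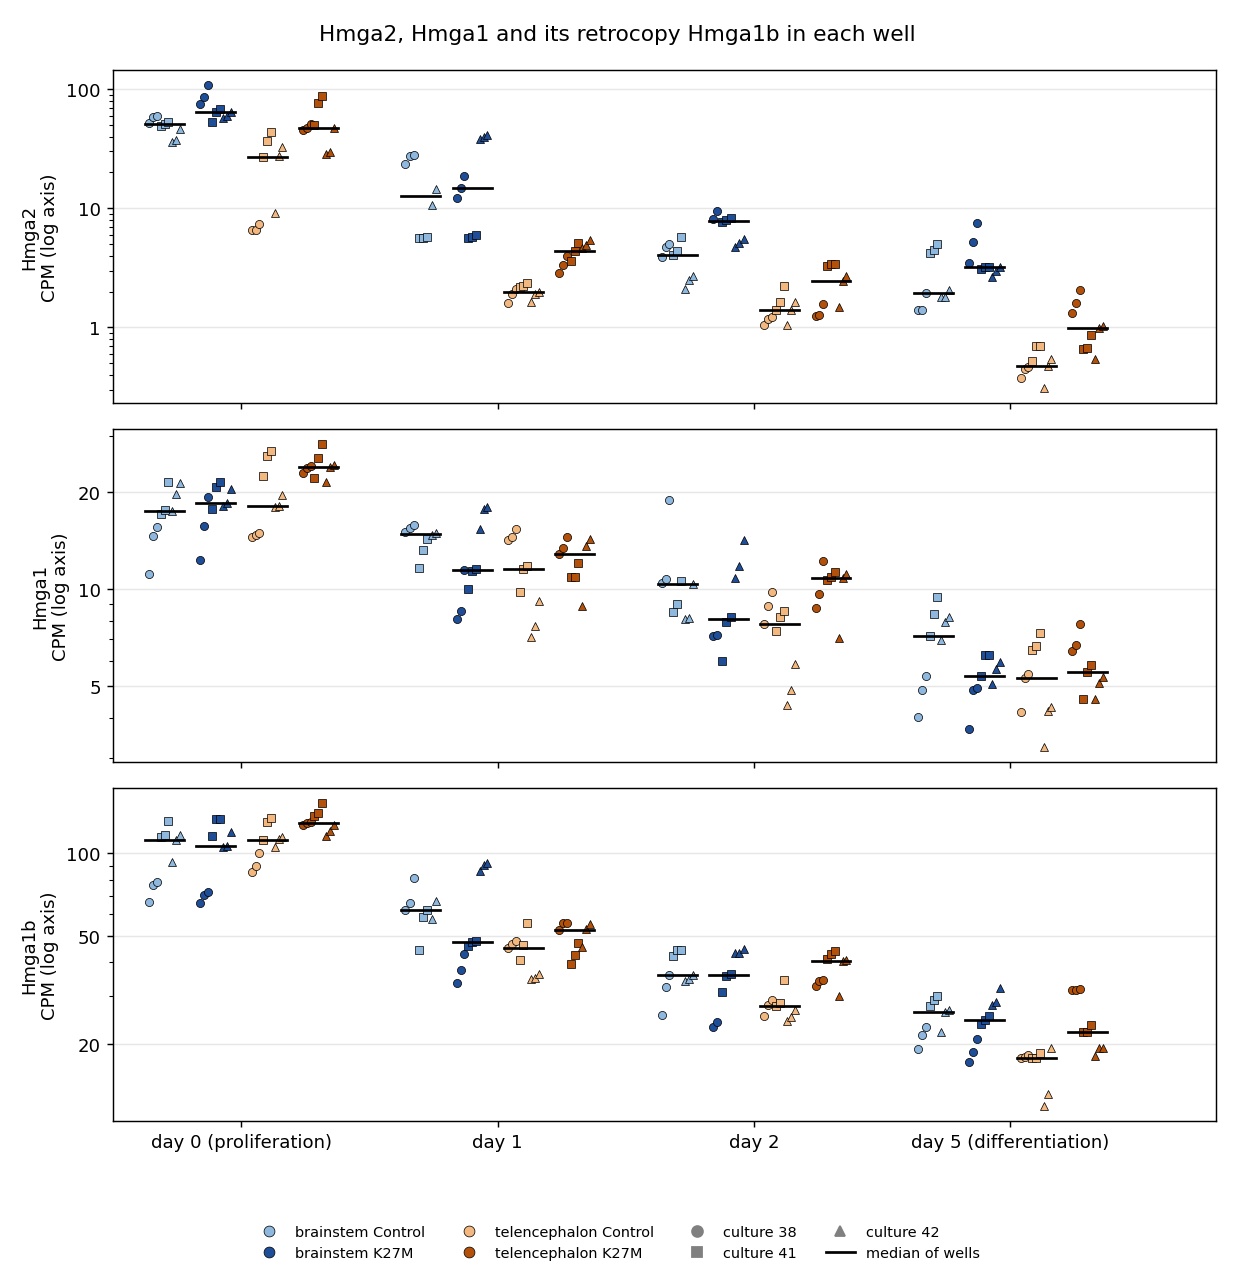
Level of Hmga2, Hmga1 and its retrocopy Hmga1b in CPM (logarithmic vertical axis) in each well, by region, genotype and day of differentiation. Hmga2 falls from medians of 26.8 to 64.8 CPM at day 0 to medians of 0.477 to 3.23 CPM at day 5, and at day 1 the brainstem wells (5.62 to 40.9 CPM) lie above those of the telencephalon (1.61 to 5.39 CPM).

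Hmga2 was higher in the brainstem at day 1 in controls (log2 2.84, 7.14-fold, adjusted p on sums 0.000677, edgeR) and in K27M (2.28, 4.85-fold, 0.0127), with no overlap of wells. In controls this call held in leaving out each culture, at 2.09 without 38 and 3.44 without 41. In K27M it was lost without culture 42 (1.34) or 38 (2.27) and with passage as a covariate (2.04, adjusted p on sums 0.0535, edgeR). In the same control comparison 5 of 12 cycling markers were higher in the brainstem, in which their sum had a median of 2431 CPM against 1317 CPM in the telencephalon, and in K27M 0 of 12 were. Of all genes, 12% were called higher in the brainstem in controls and 2.26% in K27M at this day. The part of cycling in the difference of Hmga2 was not tested. At day 5 Hmga2 was also called in controls (2.44), in the same day 5 libraries in which it had been named, so that this value is not independent of the choice of the gene. The call was lost without culture 41 (2.02) or 42 (2.58), with passage as a covariate (2.01) and without the libraries of over 28000 genes (1.54).

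K27M against control gave positive values of Hmga2 at each day, 0.51, 0.54, 0.90 and 0.47 in the brainstem and 1.33, 1.1, 0.67 and 1.19 in the telencephalon, and 0 of 8 were called by edgeR or DESeq2. An unadjusted p under 0.05 was found in 5 on wells and in 1 on sums (edgeR). At day 1 in the telencephalon the wells did not overlap (adjusted p = 0.00199 on wells and 0.264 on sums, edgeR). The SD between cultures within a group was 0.67 on the log2 scale against 0.27 between wells of a line (with 0.1 CPM added).

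Hmga1, the broadly expressed family member tied to proliferation (ENSMUSG00000046711.16, chr17:27556497-27563674, plus strand), had medians of 17.5, 14.9, 10.4 and 7.17 CPM in brainstem controls, 18.5, 11.5, 8.09 and 5.38 in brainstem K27M, 18.1, 11.6, 7.79 and 5.31 in telencephalon controls and 23.9, 12.8, 10.9 and 5.56 in telencephalon K27M at days 0, 1, 2 and 5. Its level is uncertain, because the retrocopy Hmga1b (ENSMUSG00000078249.5, chr11:120762794-120764419, plus strand) shares 92.7% of its 1596 words of 31 bases with Hmga1 transcripts and took 414940 counts against 86686 for Hmga1. Both loci are therefore given together. Their summed medians were 132.1, 76.2, 44.9 and 34.1 CPM in brainstem controls, 124.8, 57.5, 43.1 and 30.8 in brainstem K27M, 132.9, 58.1, 35.8 and 23.6 in telencephalon controls and 153.3, 65.3, 51.6 and 27.8 in telencephalon K27M.

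Hmga1 was called lower in 10 of 12 day comparisons and Hmga1b in 12 of 12. At day 5 the log2 fold changes of Hmga1 were −1.34, −1.78, −1.92 and −2.07 in brainstem controls, brainstem K27M, telencephalon controls and telencephalon K27M, and those of Hmga1b were −1.99, −2.07, −2.70 and −2.44. The values not called were those of Hmga1 at day 1 in the brainstem. Of the 10 calls of Hmga1, 7 held in leaving out each culture. Hmga1 was called in 0 of 8 K27M comparisons by edgeR or DESeq2 (−0.36 to 0.52), 3 of which had an unadjusted p under 0.05 on wells and 1 on sums (edgeR). It was likewise called in 0 of 8 comparisons of region (−0.40 to 0.56), 4 of which had an unadjusted p under 0.05 on wells and 0 on sums (edgeR). Hmga2 stood, as TPM, at 0.158 of Hmga1 and Hmga1b together in brainstem controls at day 0 and 0.0264 at day 5, and at 0.118 and 0.0121 in telencephalon K27M.

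Whether K27M changed the decline from day 0 to day 5 was tested for the members other than Igf2bp3 and Hmga2. None of 8 such differences was called by edgeR or DESeq2, beside 0.637% of genes in the brainstem and 0.116% in the telencephalon, and 2 had an unadjusted p under 0.05 on wells and 1 on sums (edgeR). Igf2bp1, with few counts, gave 2 of the 8. For Lin28b the differences were 0.25 ± 0.45 in the brainstem and −0.83 ± 0.65 in the telencephalon.

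Markers of cell states were set beside the K27M results. Of 9 OPC markers 2 were called lower at day 1 and 1 higher at day 5 in the brainstem, and 1 higher at day 2 in the telencephalon. Of 9 mature oligodendrocyte markers 1 was called lower, in the brainstem at day 5. Their summed medians at days 0, 1, 2 and 5 were 360.1, 4592, 12440 and 35920 CPM in brainstem K27M against 504.2, 1959, 19420 and 58930 CPM in controls. In telencephalon K27M they were 453.3, 3065, 13930 and 48360 CPM against 831.4, 5416, 21460 and 58080 CPM. Cycling markers were called in 0 of 96 tests of K27M against control (12 genes, 8 comparisons) by edgeR or DESeq2, 24 of which had an unadjusted p under 0.05 on wells and 2 on sums (edgeR). Of 9 astrocyte markers 0 were called, except 1 lower in the telencephalon at day 2, and their sum had medians of 428.7 CPM in K27M against 2328 CPM in controls there, but of 2195 against 705.1 CPM in the brainstem at day 5. Of 8 neuron markers 0, 1, 4 and 3 were higher in K27M in the brainstem and 0, 1, 2 and 3 in the telencephalon at days 0, 1, 2 and 5, with 0 lower. The summed neuron markers ran from 407.7 to 1515 CPM over all libraries. In the brainstem their medians were 886.7, 900.5, 887.6 and 589.1 CPM in K27M against 1102, 1265, 903.9 and 529.3 CPM in controls. In the telencephalon they were 856.4, 963, 679.5 and 518.5 CPM against 798.6, 767.6, 479.3 and 494.7 CPM. P2ry12, the 1 microglia marker tested, was higher in brainstem K27M at day 5. Of 8 vascular and fibroblast markers tested, 1, 1, 2 and 2 were higher in brainstem K27M at days 0, 1, 2 and 5, and their sum had medians of 12.9 to 14.9 CPM against 1.62 to 3.79 CPM in controls, with Cldn5 at 0 in 117 libraries. Of all genes, 1.17%, 2.57%, 3.12% and 8.35% were called higher in brainstem K27M at days 0, 1, 2 and 5, and 0.248%, 2.3%, 1.1% and 3.79% lower. In the telencephalon 0.243%, 1.91%, 3.09% and 1.49% were called higher and 0.137%, 3.21%, 2.11% and 0.804% lower. The part of these cells and states in the member results was not tested.

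The machinery that makes or destroys let-7 was followed with a list of 23 genes, all tested. In the brainstem 0 were called at days 0 and 2. At day 1 Trim25 was higher and Trim71 and Tut4 were lower, and at day 5 Hnrnpa1, Msi1 and Prkra were higher and Trim71 and Tut4 lower. In the telencephalon Tut4 was higher at day 1, and Ago4, Hnrnpa1 and Tut4 at day 2. These are 3 of 23 and 5 of 23 in the brainstem at days 1 and 5, beside 4.87% and 12.1% of all genes, and 1 and 3 of 23 in the telencephalon at days 1 and 2, beside 5.12% and 5.2%. The median log2 fold change of the list was within 0.1 of 0 in each comparison, and the median of all genes was too.

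Trim71, a ubiquitin ligase that is itself a let-7 target, had medians of 3.24, 4.45, 1.57 and 2.06 CPM in brainstem controls and 1.20, 0.832, 0.396 and 0.172 CPM in brainstem K27M. It was called lower at days 1 (log2 −2.43 ± 0.42) and 5 (−3.48 ± 0.46), and both calls were lost without culture 41 or 42 and with passage as a covariate (−1.60 and −2.03). Without the libraries of over 28000 genes the day 5 value was −1.84 and not called. Trim25, an RNA-binding ubiquitin ligase that helps the LIN28A complex uridylate let-7 precursors, was called higher in the brainstem at day 1 (1.02 ± 0.18, lost without culture 41). Hnrnpa1, which binds let-7a precursors, and Msi1, a neural stem cell RNA-binding protein that works with LIN28, were called at day 5 of the brainstem (0.35 ± 0.10 and 0.92 ± 0.18). The former was lost without any 1 culture and the latter without 41 or 42, and both were lost without the libraries of over 28000 genes (0.52 and 0.86).

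Other known let-7 targets, 34 of 35 tested, were counted in the same way. In the brainstem the numbers were 3, 5, 5 and 12 higher and 0, 1, 0 and 1 lower at days 0, 1, 2 and 5. Of all genes, 1.17%, 2.57%, 3.12% and 8.35% were called higher there and 0.248%, 2.3%, 1.1% and 3.79% lower. At day 1 all genes were nearly even, with 508 higher and 454 lower. The 1 target lower at days 1 and 5 was Trim71, which is also in the list of let-7 machinery. The targets were not tested as a set. In the telencephalon the numbers of targets were 1, 1, 2 and 1 higher and 0, 2, 2 and 0 lower, beside 0.243%, 1.91%, 3.09% and 1.49% of genes called higher and 0.137%, 3.21%, 2.11% and 0.804% lower. The median log2 fold change of the list lay between 0.11 and 0.26 in the 8 comparisons, and that of all genes between −0.02 and 0.03.

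Cdk6, a cyclin-dependent kinase of the G1 phase, had medians of 2.49, 1.70, 0.691 and 1.41 CPM in brainstem controls and 8.63, 6.23, 6.07 and 9.41 CPM in brainstem K27M, and was called at all 4 days (log2 1.81 ± 0.24, 1.98 ± 0.26, 2.67 ± 0.27 and 2.76 ± 0.25). With offsets for effective transcript length the first 3 values were 0.31, −0.08 and 0.79 and were not called. Without culture 41 the calls of days 0, 1 and 2 were lost (1.72, 2.04 and 2.34), and those of days 0 and 1 without 42 as well (1.74 and 1.59), while that of day 5 held in all these fits. Nr6a1, a nuclear receptor of embryonic cells whose 3′UTR held the most let-7 matches of any gene tested (8), rose at days 0, 2 and 5 in the brainstem (1.26 ± 0.14, 1.56 ± 0.14 and 0.97 ± 0.14), from control medians of 4.84, 5.25 and 6.33 CPM to 10.6, 12.6 and 11.0 CPM. The call of day 2 held in leaving out each culture, and those of days 0 and 5 were lost without culture 41 (1.03 and 0.71). Thbs1, a secreted matrix glycoprotein, was called at day 5 of the brainstem (4.13 ± 0.44, medians 0.374 and 11.6 CPM, 3.47 and lost without culture 42).

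Genes that overlap a let-7 locus were taken by coordinates after the files were seen, 8 of 9 tested. In the brainstem D630033A02Rik (at the let-7i locus) was called higher at day 1, Mir99ahg and 3110039I08Rik at day 2 and Mir99ahg and Wdr82 at day 5, and in the telencephalon Mir99ahg and 3110039I08Rik at day 1. None was called lower, and the shares of all genes called were 4.87%, 4.22% and 12.1% in the brainstem at days 1, 2 and 5 and 5.12% in the telencephalon at day 1. The call of D630033A02Rik was lost without culture 38 or 41 (1.01 and 0.73), and those of 3110039I08Rik (0.75 and 0.97 in the brainstem, 0.83 and 0.93 in the telencephalon) and Wdr82 (0.24 and 0.31) without 41 or 42. Mir99ahg, the long noncoding host of the let-7c-1 cluster, had log2 fold changes of 1.66 ± 0.15 at day 2 and 1.35 ± 0.14 at day 5 in the brainstem and 0.90 ± 0.14 at day 1 in the telencephalon. The first of these held in leaving out each culture, the second was lost without 41 (0.86), and the third without 41 or 42.

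Genes with the most similar pattern were ranked by Pearson's r of log2 CPM over the 48 means of line and day, as a description, since lines share cells and all means share the course of differentiation. Nearest to Lin28b were Mbnl3 (0.826), Susd5 (0.793) and Nr6a1 (0.785). Nearest to Igf2bp3 were Asb4 (0.901), Gjc1 (0.880) and Tenm3 (0.865), and to Igf2bp2 Zfp618 (0.915), Chn1 (0.855) and Plagl2 (0.844). Hmga2 lay nearest to Ccnd1 (0.956), Cd83 (0.956) and Raet1d (0.950), and Hmga1 to Hmga1b (0.951), Polr2e (0.948) and Zmynd19 (0.948). Among the members themselves r was 0.812 for Hmga1 and Hmga2, 0.563 for Igf2bp2 and Igf2bp3, 0.537 for Lin28b and Hmga2 and 0.444 for Lin28b and Igf2bp3.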

How the data were processed

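RNA was sequenced from wells of cultured OPCs (stranded total RNA, paired-end). The authors quantified transcripts with Salmon 1.10.1 and deposited estimated counts and TPM for each transcript on mm10. Both were summed per gene with GENCODE M21, which matched 139821 of 141084 transcripts, and unmatched ones held 0.252 to 0.377% of counts. Estimated counts were rounded, filtered by expression and TMM-scaled, and 19769 genes were tested with the edgeR 4.0.16 quasi-likelihood test in R 4.3.3, in 1 fit of all libraries with culture within region as a block. The same kind of test was run on 48 sums of line and day, filtered anew to 23003 genes. Its comparisons of region used a block of culture shared by both regions. A call needed an adjusted p (Benjamini-Hochberg) under 0.05 in both, with the same sign. DESeq2 1.42.0 was an alternative. Deviations of control and K27M lines of the same culture correlated above 0.1 in 22 of 24 pairs. A simpler fit, of genotype and culture in brainstem wells in proliferation medium, was run on simulated counts with known changes. Its simulated lines varied less than those of Lin28b, Igf2bp3 and Hmga2, so it does not test the calls of these genes. Named genes were the members, up to 4 genes a list (mean of at least 1 CPM, called in at least 1 K27M comparison, largest absolute mean log2 fold change over the 8), and the 3 protein-coding genes most like each member with a mean of at least 1 CPM. The members and lists were chosen with earlier results of these data known.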

Additional observations from a re-analysis of the deposited data

Results flagged for a closer look

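In 2 of 80 groups of wells (5 genes), the highest well stood apart from the others by more than Dixon's 95% limit, and chance alone marks about 1 group in 20. Lin28b in telencephalon controls at day 1 had a highest well of 0.219 CPM, next to 0.097 CPM (culture 41, passage 2). Hmga1 in brainstem controls at day 2 had a highest well of 19 CPM, next to 10.8 CPM (culture 38, passage 5), in a library with 20157 genes detected.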

How the results depend on the processing

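The 12 member calls of K27M against control became 7 with no filter on low counts, which lost Igf2bp2 in the brainstem at days 0, 1 and 2 and Lin28b in the telencephalon at days 0 and 2. That setting gave 10 calls between regions, without Lin28b and Igf2bp3 of controls at day 0, and 28 day calls, without Hmga2 at day 1 in both brainstem genotypes, Igf2bp3 at day 5 in brainstem K27M and the 3 of Lin28b. It also tested Lin28a, which had at most 11 counts in a library, and any calls of Lin28a are in these numbers. The 12 calls between regions became 6 with passage as a covariate. On wells alone, a setting chosen after seeing the data, 24 K27M, 29 region, 5 interaction and 1 day-by-genotype differences passed. Leaving out 1 culture gave 5 to 9 K27M, 6 to 8 region and 22 to 31 day calls. Without the replicate block there were 8 K27M, 11 region and 29 day calls (32 with it), and 0 interaction calls. DESeq2 gave 15, 14 and 34 calls, and with a fold threshold of 1.1 it gave 9, 12 and 30. Effective length offsets gave 9, 11 and 31. No called value of a member changed sign. Few counts limit Lin28a, Igf2bp1 and Lin28b in telencephalon controls. The cause of each change was not tested.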
